A study of Rattus norvegicus with 15 samples.

Results

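The collagens, laminins and matrix glycoproteins measured here are 76 of the 14217 genes, and 107 of the 31099 probe sets, on an Affymetrix 3' expression array of the rat. A probe set was taken when the platform's annotation gave it a single gene symbol that names a collagen chain, a laminin chain, a fibulin, fibrillin, nidogen or thrombospondin, or one of 15 further matrix proteins such as fibronectin, elastin and decorin. By textbook class, 11 genes encode fibrillar collagens, 21 components of basement membranes, 23 other collagens, 8 parts of elastic fibres, 5 matrix proteoglycans and 8 matrix glycoproteins. The arrays came from testes of LBNF1 rats, a laboratory hybrid, aged 25 to 27 weeks. The 5 irradiated samples are set against 10 control samples, whose source is described as before irradiation. The protocol, which stands on every sample's label, is a 6 Gy dose to the lower abdomen. How long after irradiation the testes were taken is not stated in the sources used here. The labels speak of biological replicates but do not tie each one to a rat of its own. A p-value therefore reflects the variation among these arrays, some of which may be technical.

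Fibrillar collagens are made as procollagens with a long triple helix, trimmed outside the cell and cross-linked into fibrils that give interstitial tissue its strength. Basement membranes are thin sheets in which a network of laminin trimers and a network of type IV collagen are joined by nidogen and by proteoglycans such as perlecan and agrin. In the testis a basement membrane underlies the Sertoli cells and germ cells of each seminiferous tubule, and layers of collagen and peritubular myoid cells surround it.

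The values are log2 signals whose zero point is unknown, so levels of different genes were not ranked. Different probe sets were used together in choosing a gene's probe set, in the array median and in the summed marker signals. In those sums the brightest probe sets weigh most. A change is irradiated minus control on this scale, with limma's moderated standard error (SE) and a p-value adjusted over 18711 probe sets. These were the ones that, in 5 or more of the 15 arrays, were at or above the median of the array. The tested probe set with the highest mean over all arrays stands for a gene. Where a probe set lay below the median of its array in every array of a group, that group has only a bound. The change is then given as "at least N-fold" against the array median, if every array of the other group reached its median. Control values are given as the lowest, the median and the highest of the 10 arrays, and irradiated values for replicates 1 to 5 in that order.

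Irradiated testes had higher signals for most tested basement membrane genes, for the fibril collagens Col1a1, Col1a2, Col3a1, Col5a1 and Col5a2, for 4 type VI collagen chains, and for Sparc, Dcn, Bgn, Fbn1, Fn1 and Vtn. Signals were lower for Lamb3, Fbn2, Fmod and a set of less common collagens that includes Col16a1, Col20a1 and Col22a1. Of the 76 genes 56 were tested, and 36 of them (64.3%) were higher and 15 (26.8%) lower in irradiated testes at an adjusted p of 0.05. Over all 10841 genes tested, 47.6% were higher and 37.9% were lower by the same rule. In 33 of the 56 genes every irradiated array lay above every control array, and in 11 every irradiated array lay below, against 40.5% and 29% of all genes. Asking for a change beyond 1 log2 unit (limma's treat test) left 29 higher and 9 lower, against 25% and 18.5% of all genes. Of the 36 higher genes, 6 (Col6a2, Col6a6, Lama5, Lamb2, Lox and Vtn) passed the filter only through the irradiated arrays, and of the 15 lower genes 7 (Col14a1, Col20a1, Col24a1, Col9a3, Fbn2, Thbs2 and Thbs3) only through the control arrays. The filter thus favoured the side on which these 13 differed, and nothing is read from their share of the counts. Without a filter, 54 of the 107 probe sets were higher and 22 lower, against 37.8% and 29% of 31042 probe sets. With it 48 of 70 tested probe sets were higher and 15 lower, against 49% and 34.3% of all tested, and 31 of the 107 lay below the median in every array.

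These changes stood beside shifts in the markers of nearly every cell type of the testis. The marker counts are to be read against 47.6% higher and 37.9% lower of all genes. All 18 tested spermatocyte and spermatid markers were lower, with a summed back-transformed signal of 1.88 to 4.84 in irradiated and 423 to 631.2 in control arrays. In all 5 irradiated arrays 14 of them were under the array median, Sycp3, Ldhc, Tnp1 and Akap4 included, and so passed the filter only through the control arrays. Sertoli cell markers were higher in 20 of 20 tested genes (summed signal 202.7 to 274.5 in irradiated, 54.1 to 72.1 in control arrays). Peritubular myoid markers were higher in 13 of 14 (53.9 to 64.0 in irradiated, 13.9 to 17.3 in control arrays). Fibroblast and mesenchymal markers were higher in 7 of 9 (34.2 to 39.3 in irradiated, 3.51 to 4.91 in control arrays), and Leydig cell markers in 14 of 15 (117 to 143.1 in irradiated, 12.2 to 17.4 in control arrays). Endothelial markers were higher in 11 of 13 (11.0 to 13.5 in irradiated, 3.67 to 4.77 in control arrays) and macrophage markers in 13 of 15 (43.5 to 52.4 in irradiated, 15.2 to 19.5 in control arrays). The macrophage markers Aif1 and Adgre1 were lower, and Aif1 changed by -3.25 ± 0.11 (adjusted p = 6.48e-14) without overlap. In control arrays Aif1 had the largest deposited value of the macrophage markers, with a mean of 3.24, and so weighs most in the control sum. With the zero point unknown, this is no ranking of expression. Blood markers were higher in 2 of 3 (8.96 to 15.2 in irradiated, 3.02 to 5.08 in control arrays). The 2 tested markers of the epididymis, Esr1 and Cftr, were lower (0.284 to 0.539 in irradiated, 1.15 to 1.60 in control arrays) and under the median in all 5 irradiated arrays. Some of the higher markers passed the filter only through the irradiated arrays, which favoured that direction: 5 of the 11 endothelial (Pecam1, Kdr, Emcn, Sox17 and Sox18), 4 of the 13 macrophage (Cd68, Cd163, C1qb and Ptprc), 3 of the 13 myoid (Tagln, Cnn1 and Lmod1), and Gli1, Akr1c14 and Testin of the fibroblast, Leydig and Sertoli lists. In the same way the lower Flt1, Icam2, Adgre1, Pi16, Slc4a1, Esr1 and Cftr passed only through the control arrays. In whole tissue, fewer cells of a type and less RNA per cell cannot be told apart, and the part of these marker shifts in the matrix results was not tested.

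Scaling bears on direction. The median change of all tested genes was 0.20 as deposited, 0.05 after centring arrays on their median, -0.06 after quantile normalization, and -1.78 and -1.81 after centring arrays on the Sertoli or the peritubular myoid markers. Of the 56 matrix genes, 17 were higher and 29 lower with arrays centred on the Sertoli markers, against 36 and 15 as deposited. On that scale a gene is higher only where it changed by more than the Sertoli markers did. The shares of all genes called higher or lower on the marker-centred scales were not computed. Nothing about matrix genes against other genes is therefore read from these counts or from later counts on those scales.

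The fibrillar collagens moved unequally. Of 8 tested genes 5 were higher, 1 was lower and 2 did not pass, against 47.6% higher and 37.9% lower of all genes. Col24a1 and Col2a1 passed the filter only through the control arrays. The class median change of 1.49 (1.29 above that of all genes) became -0.49 and -0.52 once arrays were centred on the Sertoli or the myoid markers. Col1a2 encodes one of the chains of type I collagen, the main fibril former of connective tissue. Its promoter window from 250 bases before to 50 bases after the start, from RefSeq (GRCr8, chr4:33518307-33518606, plus strand), is shown as that of a type I collagen gene, with the letters TATAAA in capitals, as are the letters CCAAT read on the opposite strand.
Col1a2: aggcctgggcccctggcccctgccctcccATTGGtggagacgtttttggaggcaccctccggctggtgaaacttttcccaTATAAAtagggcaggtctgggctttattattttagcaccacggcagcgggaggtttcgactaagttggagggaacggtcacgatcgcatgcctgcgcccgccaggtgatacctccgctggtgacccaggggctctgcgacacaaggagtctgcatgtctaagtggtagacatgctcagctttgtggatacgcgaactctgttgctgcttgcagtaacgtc

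Col1a2 (1370155_at) had log2 signals of 2.91, 2.73, 2.44, 2.67 and 2.78 in irradiated arrays, against -1.16, -0.67 and -0.44 in control arrays. The groups did not overlap, and the change of 3.40 ± 0.12 (adjusted p = 1.09e-13) amounts to 10.5-fold. The second tested Col1a2 probe set (1387854_at) changed by 2.40, or 5.27-fold. Col1a1 (1388116_at), the other type I chain, had 2.30, 1.92, 1.22, 1.89 and 1.92 in irradiated arrays, against -1.18, -0.82 and -0.36 in control arrays, a change of 2.62 ± 0.17 (adjusted p = 2.21e-10). Irradiated replicate 3 was the lowest of its group for both chains, and still above every control array. Col3a1 (1370959_at), whose type III collagen forms thin fibrils with type I, had 2.66, 2.41, 2.28, 2.48 and 2.58 in irradiated arrays, against -1.35, -0.76 and -0.51 in control arrays. Its change was 3.30 ± 0.12 (adjusted p = 1.15e-13), or 9.82-fold, again without overlap. These 3 genes were also higher with arrays centred on the Sertoli markers, Col1a2 by 1.42, Col3a1 by 1.32 and Col1a1 by 0.65.

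Type V collagen starts fibrils and limits their width. Col5a2 (1370895_at) had -0.04, -0.05, -0.01, -0.03 and -0.01 in irradiated arrays, against -1.49, -1.33 and -1.19 in control arrays, a change of 1.31 ± 0.07 (adjusted p = 2.18e-11) with groups far apart and little spread within either. Col5a1 (1376099_at) had -0.06, 0.04, -0.24, -0.19 and -0.15 in irradiated arrays, against -2.60, -2.12 and -0.86 in control arrays, of which 4 of 10 reached their median. Its change was 1.67 ± 0.27 (adjusted p = 2.44e-05). Both type V genes turned negative on the Sertoli-centred scale, Col5a1 to -0.31 (adjusted p = 0.373) and Col5a2 to -0.67 (adjusted p = 9.11e-06). Col24a1 (1384969_at), a minor fibrillar collagen, averaged -2.53 ± 0.50 in irradiated testes (SD, n = 5), below the array median in all 5, against -1.24 ± 0.23 in control testes (SD, n = 10). It was lower (adjusted p = 3.39e-06), but only 1.05-fold with values floored at the array median, because the control signal itself sat close to it. Of the control arrays 9 of 10 reached the median. Col2a1, best known from cartilage, had a change of -0.37 ± 0.30 (adjusted p = 0.25), which became -0.56 (adjusted p = 0.00805) without control replicate 1. Col27a1 had a change of 0.06 ± 0.28 (adjusted p = 0.843), and its groups overlapped. Col5a3, Col11a1 and Col11a2 did not pass the filter and were not tested.

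**Figure D1:**
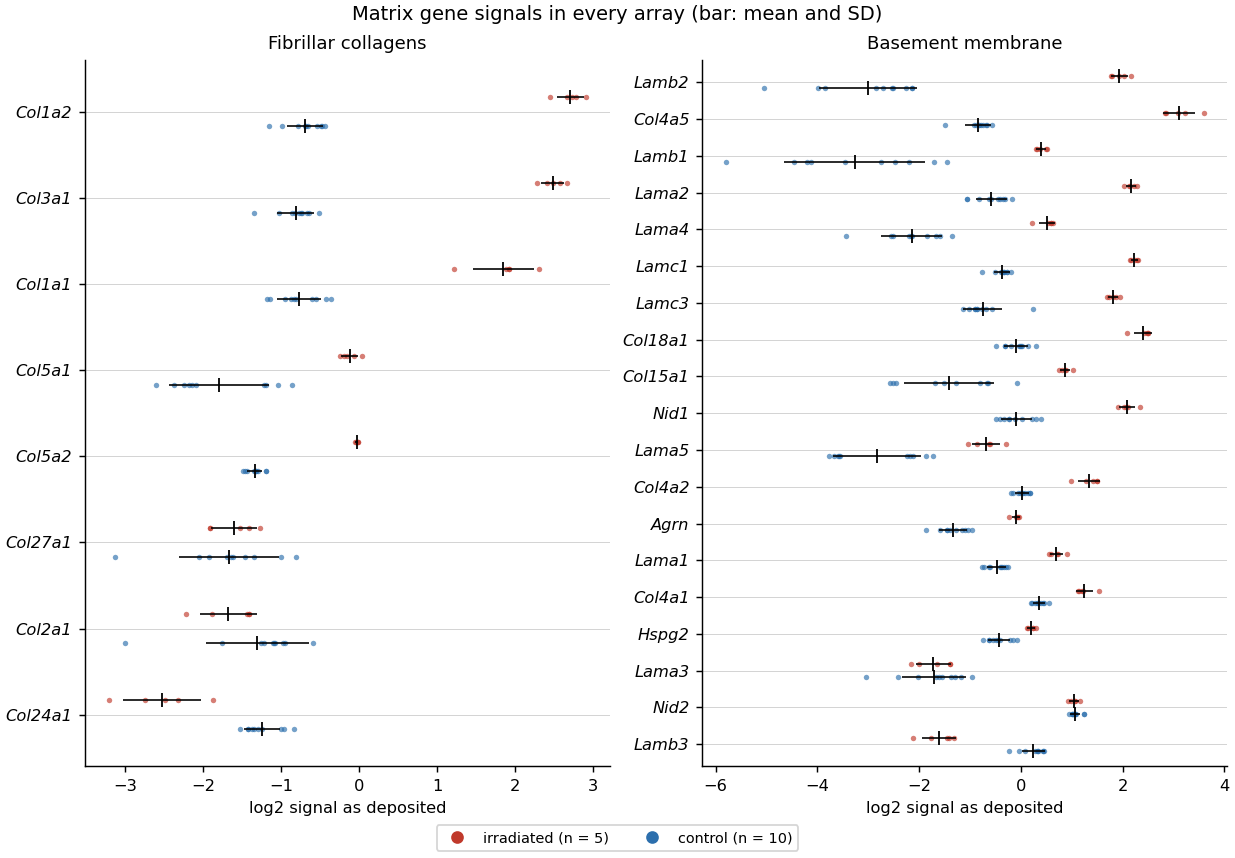
Log2 signal as deposited (horizontal axis) of each tested fibrillar collagen gene and basement membrane gene in every array, irradiated (n = 5) above control (n = 10), with the mean and SD as bars. Every irradiated array of Col1a1, Col1a2 and Col3a1 lies above every control array, while Nid2, Lama3, Col2a1 and Col27a1 overlap.

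Basement membrane genes were higher in 16 of 19 tested members (84.2%), with 1 lower and 2 not passing. Over all genes 47.6% were higher and 37.9% lower. Lama5 and Lamb2 passed the filter only through the irradiated arrays, which favoured their direction, and Lama3 only through the control arrays. The class median change of 2.18 (1.98 above that of all genes) shrank to 0.20 and 0.17 with arrays centred on the Sertoli or the myoid markers. There 8 of the 19 were higher. Type IV collagen forms the network that gives the sheet its stability. Col4a1 and Col4a2, the chains of its commonest form, are transcribed from one shared promoter region: their starts in RefSeq lie 77 bases apart on opposite strands of chromosome 16 (GRCr8), and their promoter windows share 176 bases. Both windows are shown because the genes share these bases, each 5′ to 3′ on its own gene's strand. The capitals mark the shared bases, which are reverse complements of each other. The Col4a1 window is chr16:84885347-84885646 on the plus strand and the Col4a2 window is chr16:84885471-84885770 on the minus strand.
Col4a1: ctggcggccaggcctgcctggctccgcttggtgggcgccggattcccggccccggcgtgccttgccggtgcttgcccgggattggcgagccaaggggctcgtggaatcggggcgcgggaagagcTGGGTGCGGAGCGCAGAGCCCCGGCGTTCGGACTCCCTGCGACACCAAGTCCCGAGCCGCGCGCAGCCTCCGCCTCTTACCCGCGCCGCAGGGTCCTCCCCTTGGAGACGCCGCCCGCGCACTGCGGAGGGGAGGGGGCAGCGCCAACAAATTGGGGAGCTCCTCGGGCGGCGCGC
Col4a2: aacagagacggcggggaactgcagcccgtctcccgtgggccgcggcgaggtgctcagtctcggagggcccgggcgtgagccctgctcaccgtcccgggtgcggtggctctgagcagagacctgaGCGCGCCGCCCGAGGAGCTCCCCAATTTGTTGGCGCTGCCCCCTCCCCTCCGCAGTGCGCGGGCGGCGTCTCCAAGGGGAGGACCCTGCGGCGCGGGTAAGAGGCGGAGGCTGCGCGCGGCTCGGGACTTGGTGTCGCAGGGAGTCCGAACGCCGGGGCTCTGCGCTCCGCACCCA

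Col4a1 (1373245_at) had 1.54, 1.22, 1.21, 1.15 and 1.12 in irradiated arrays, against 0.19, 0.35 and 0.55 in control arrays, a change of 0.89 ± 0.09 (adjusted p = 4.87e-08). Col4a2 (1388494_at) had 1.42, 1.28, 1.50, 0.98 and 1.49 in irradiated arrays, against -0.19, 0.03 and 0.18 in control arrays, a change of 1.31 ± 0.10 (adjusted p = 1.74e-09). Neither gene's groups overlapped, and on the Sertoli-centred scale both turned negative, to -1.09 and -0.67. Col4a5 (1374705_at) encodes a chain of the second type IV network and is the gene affected in human X-linked Alport syndrome. It had 3.59, 2.84, 3.23, 2.82 and 3.09 in irradiated arrays, against -1.49, -0.80 and -0.56 in control arrays. Its change of 3.95 ± 0.15 (adjusted p = 1.85e-13), or 15.5-fold, was the largest of the 3 tested type IV genes and was 1.98 on the Sertoli-centred scale. Col4a6 lies head to head with Col4a5 on chromosome X, with starts 1415 bases apart and no shared window bases, and did not pass the filter. Its brighter probe set (1386827_at) had -1.53, -1.23, -1.45, -1.78 and -1.09 in irradiated arrays, of which 2 reached their median, against -4.18, -3.46 and -1.71 in control arrays, of which none did. The groups overlapped, and without the filter the change was 1.86 (adjusted p = 0.000381), but only 0.22 with values floored at the array median. Col4a4 was not tested.

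Laminins are trimers of an alpha, a beta and a gamma chain, and all 10 laminin genes on the array were tested. Of them 8 were higher (against 47.6% of all genes), Lamb3 was lower and Lama3 did not pass. Lama5 and Lamb2 are among the 8 and passed the filter only through the irradiated arrays. The laminin median change was 2.58, or 1.91 with values floored at the array median, and 0.60 with arrays centred on the Sertoli markers. The 2.58 lies close to the change of Lamc1, the gamma chain of most laminins, whose RefSeq promoter window (GRCr8, chr13:68051937-68052236, minus strand) is shown for that reason. Capitals mark the letters GGGCGG, found at 1 position on the gene's strand and at 4 on the opposite strand.
Lamc1: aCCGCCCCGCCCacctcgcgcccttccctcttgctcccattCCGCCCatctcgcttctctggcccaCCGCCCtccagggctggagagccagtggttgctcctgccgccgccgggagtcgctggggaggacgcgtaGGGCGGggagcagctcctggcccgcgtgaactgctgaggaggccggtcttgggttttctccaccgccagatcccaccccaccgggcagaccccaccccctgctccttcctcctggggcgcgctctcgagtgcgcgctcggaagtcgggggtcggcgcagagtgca

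Lamc1 (1371322_at) had 2.31, 2.15, 2.24, 2.29 and 2.16 in irradiated arrays, against -0.76, -0.35 and -0.19 in control arrays, a change of 2.61 ± 0.09 (adjusted p = 6.03e-14) with no overlap. Lamc3 (1393896_at), a gamma chain of more restricted occurrence, had 1.95, 1.80, 1.74, 1.87 and 1.70 in irradiated arrays, against -1.15, -0.86 and 0.24 in control arrays, a change of 2.56 ± 0.17 (adjusted p = 3.39e-10). Control replicate 4 held the highest control value of Lamc3 by some distance, and the groups still did not overlap. Among beta chains, Lamb2 (1367880_at) had 1.77, 2.03, 1.78, 2.16 and 1.92 in irradiated arrays, against -5.05, -2.62 and -2.14 in control arrays, all 10 of which were below their median. It was at least 10.6-fold higher (adjusted p = 6.07e-09). Lamb1 (1373210_at), the beta chain of the laminins of early basement membranes, had 0.51, 0.31, 0.49, 0.37 and 0.30 in irradiated arrays, against -5.79, -3.11 and -1.45 in control arrays. Only 1 control array of Lamb1 reached its median, so the change of 3.66 ± 0.57 (adjusted p = 1.6e-05) rests on values that are mostly dim in controls, and it was 1.86 with values floored at the array median. Lamb3 (1391022_at), the beta chain of laminin-332 in skin, moved the other way, with -1.78, -1.31, -1.41, -1.45 and -2.12 in irradiated arrays, against -0.23, 0.32 and 0.46 in control arrays, a change of -1.86 ± 0.14 (adjusted p = 2.5e-09) without overlap. Of the irradiated arrays of Lamb3 1 of 5 reached its median.

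Of the alpha chains, Lama2 (1390404_at), the chain affected in a congenital muscular dystrophy in humans, had 2.22, 2.13, 2.28, 2.02 and 2.15 in irradiated arrays, against -1.05, -0.52 and -0.17 in control arrays, a change of 2.74 ± 0.14 (adjusted p = 1.16e-11). Lama1 (1392926_at) had 0.72, 0.59, 0.90, 0.73 and 0.56 in irradiated arrays, against -0.76, -0.40 and -0.25 in control arrays, a change of 1.18 ± 0.10 (adjusted p = 1.11e-08) that turned to -0.80 on the Sertoli-centred scale. Groups did not overlap for either. Lama4, an alpha chain of vessel walls, changed by 2.66 ± 0.26 (adjusted p = 4.76e-08) with 1 of 10 control arrays at or above the median. The second tested Lama4 probe set changed by 0.01 (adjusted p = 0.934). Lama5 was at least 1.72-fold higher (adjusted p = 4.24e-05), and a second Lama5 probe set that did not pass the filter averaged -2.18 in irradiated and -1.67 in control arrays. Lama3, which pairs with Lamb3 in laminin-332, had a change of -0.01 ± 0.28 (adjusted p = 0.984), and none of its irradiated arrays reached the median.

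The linkers of the sheet differed among themselves. Nid1 (1371518_at), which bridges laminin and type IV collagen, had 2.35, 1.92, 2.06, 2.02 and 2.10 in irradiated arrays, against -0.48, -0.17 and 0.39 in control arrays, a change of 2.18 ± 0.14 (adjusted p = 3.68e-10). Nid2 (1388618_at), its close relative, had 1.17, 1.07, 1.07, 0.92 and 0.99 in irradiated arrays, against 0.95, 1.05 and 1.25 in control arrays, so the groups overlapped and the change was -0.02 ± 0.07 (adjusted p = 0.768). Nid2 was called lower after quantile normalization (-0.32, adjusted p = 0.00136). Hspg2 (1371771_at), perlecan, had 0.12, 0.25, 0.13, 0.29 and 0.25 in irradiated arrays, against -0.73, -0.47 and -0.08 in control arrays. Its change of 0.64 ± 0.11 (adjusted p = 3.93e-05) was the smallest past the threshold in the class, did not pass after quantile normalization (0.28, adjusted p = 0.0506) and turned to -1.34 on the Sertoli-centred scale. Agrn, agrin, changed by 1.23 ± 0.13 (adjusted p = 1.43e-07) and turned to -0.75 on that scale. Col18a1 (1388143_at), whose cleaved end is endostatin, had 2.48, 2.50, 2.09, 2.49 and 2.41 in irradiated arrays, against -0.48, -0.03 and 0.30 in control arrays, a change of 2.49 ± 0.12 (adjusted p = 6.76e-12). Col15a1, its relative at the outer face of basement membranes, changed by 2.29 ± 0.37 (adjusted p = 2.22e-05).

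Set side by side, 5 of 8 fibrillar and 16 of 19 basement membrane genes were higher, against 47.6% of all genes. Lamb2 and Lama5 passed the filter only through the irradiated arrays, and Col24a1, Col2a1 and Lama3 only through the control arrays. The filter favoured the group through which each passed, so nothing is read from their share of these counts and medians. In each array the deviation of every gene from its own control mean was taken and the median found over the class. For fibrillar genes this was 1.52, 1.56, 1.44, 1.46 and 1.48 in the irradiated arrays, with controls between -0.13 and 0.23. For basement membrane genes it was 2.23, 2.28, 2.15, 2.19 and 2.19 in the irradiated arrays, with controls between -0.12 and 0.16. Fibrillar minus basement membrane was thus -0.70 to -0.74 in the irradiated arrays and -0.18 to 0.11 in the control arrays. These medians include the genes that passed the filter through a single group, so no class difference is read from the gap. The difference of the class medians was -0.69 as analysed, and it moved both ways with the processing. Without a filter it was -1.80, with a fibrillar median of 0.061. With the mean of all tested probe sets of a gene it was -0.058, and with a stricter filter at the 75th percentile of each array, which left 21 of the 56 genes untested, it was 0.91. The spread within each class was wider than the gap, from -1.28 for Col24a1 to 3.40 for Col1a2 among fibrillar genes and from -1.86 for Lamb3 to a fitted 4.94 for Lamb2, which is dim in controls, among basement membrane genes. The difference between the classes was not tested.

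**Figure D2:**
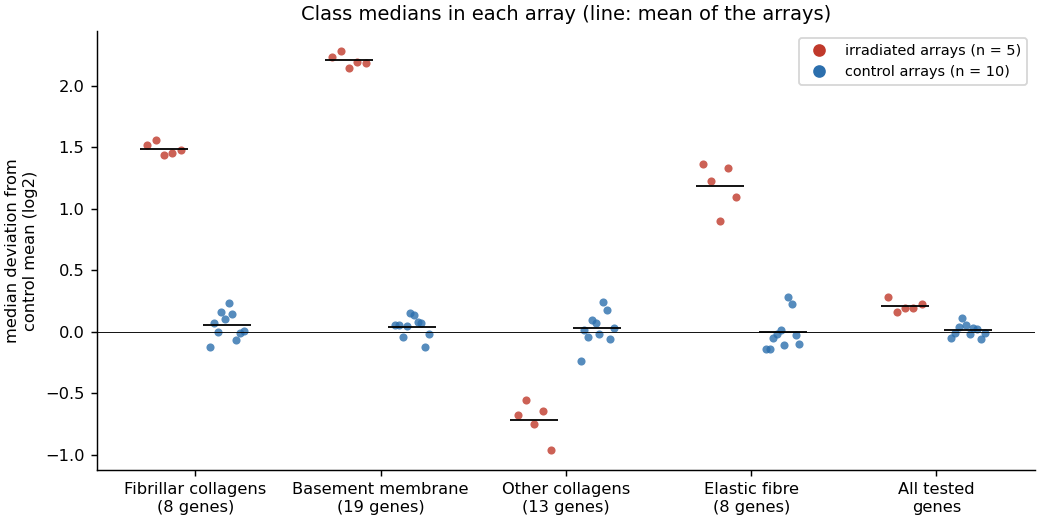
Median deviation of the genes of a class from their own control means (log2, vertical axis) in each irradiated (red, left, n = 5) and control (blue, right, n = 10) array, with lines at the mean of the arrays. On the deposited scale fibrillar and basement membrane medians lie above all control arrays in each irradiated array and other collagens lie below, while centring on the Sertoli markers turns the fibrillar median to -0.49.

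Among the 13 other collagens tested, 4 were higher, 8 lower and 1 did not pass, against 47.6% higher and 37.9% lower of all genes. Col6a2 and Col6a6 passed the filter only through the irradiated arrays, and Col14a1, Col20a1 and Col9a3 only through the control arrays. The filter favoured their direction. The class median change was -0.79, which is -0.99 when that of all genes is subtracted. It was -0.94 after quantile normalization and with arrays centred on their median, and -0.17 with values floored at the array median. Centring on the Sertoli or the myoid markers gave -2.77 and -2.80. That centring lowers the change of every gene by the same amount, so a negative median had to stay negative. The 4 higher genes are all chains of type VI collagen, which forms beaded filaments next to basement membranes, and with arrays centred on the Sertoli markers only Col6a2 was higher. Col6a1 (1371349_at) had 2.13, 1.80, 1.69, 2.07 and 1.90 in irradiated arrays, against 0.05, 0.45 and 0.97 in control arrays, a change of 1.44 ± 0.13 (adjusted p = 1.89e-08) that turned to -0.53 on the Sertoli-centred scale. Col6a2 was at least 4.72-fold higher (adjusted p = 1.47e-10), and every control array was below its median. Col6a3 (1389966_at) had 1.48, 1.34, 1.43, 1.51 and 1.36 in irradiated arrays, against -0.85, -0.56 and -0.30 in control arrays, a change of 2.00 ± 0.08 (adjusted p = 8.37e-13). The second tested Col6a3 probe set changed by 0.17 (adjusted p = 0.186). Col6a6 was at least 1.97-fold higher (adjusted p = 4.23e-05), and Col6a5 had a change of -0.24 ± 0.38 (adjusted p = 0.558) with overlapping groups.

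Of the 8 lower collagens, all but 2 were also lower with every irradiated array below every control array. Col16a1 (1390846_at), a fibril-associated collagen, had -0.00, -0.11, -0.11, -0.25 and 0.03 in irradiated arrays, against 2.68, 2.97 and 3.36 in control arrays. The change of -3.08 ± 0.13 (adjusted p = 1.38e-12) is 8.43-fold lower, and the groups were far apart. Col22a1 (1377813_at), known from tissue junctions such as muscle and tendon, had -1.20, -1.00, -0.77, -1.03 and -0.50 in irradiated arrays, against 1.10, 1.26 and 1.52 in control arrays, a change of -2.18 ± 0.11 (adjusted p = 8.03e-12). Col20a1 was below the median in every irradiated array and at least 1.81-fold lower (adjusted p = 2.56e-09). The membrane-spanning Col23a1 changed by -1.50 ± 0.08 (adjusted p = 2.8e-11) and Col26a1 by -1.53 ± 0.11 (adjusted p = 9.87e-10), both without overlap. Col9a2 changed by -0.79 ± 0.19 (adjusted p = 0.000961), with 2 of 5 irradiated arrays at or above the median and groups that overlapped. Col14a1 was called lower (adjusted p = 0.000297) with overlapping groups, and since every irradiated array and 4 of 10 control arrays were under the median, no fold is given. Col9a3, like Col9a2 a chain of type IX collagen, was called lower (adjusted p = 6.02e-05) without overlap. Every irradiated array of Col9a3 was under the median and 7 of 10 control arrays reached it, so no fold is given.

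Elastic fibres consist of elastin on a scaffold of fibrillin microfibrils, with fibulins as linkers and lysyl oxidases as cross-linkers. Of 8 tested genes 6 were higher and 2 lower, against 47.6% and 37.9% of all genes. Lox passed the filter only through the irradiated arrays and Fbn2 only through the control arrays, which favoured their direction. The class median change was 1.12, and -0.86 after centring on the Sertoli markers, where only Fbn1 was higher. The 2 fibrillins moved in opposite directions. Fbn1 (1387351_at), the fibrillin affected in human Marfan syndrome, had 1.17, 1.25, 0.80, 1.23 and 1.03 in irradiated arrays, against -1.67, -1.49 and -0.81 in control arrays, a change of 2.52 ± 0.13 (adjusted p = 1.36e-11). Fbn2 (1370037_at), the fibrillin best known from development, had -2.55, -3.40, -4.12, -3.84 and -4.61 in irradiated arrays, against -0.33, 0.02 and 0.88 in control arrays. Every irradiated array of Fbn2 was below its median, so it was at least 2.67-fold lower (adjusted p = 9.49e-10). Fbln1 changed by 1.78 ± 0.13 (adjusted p = 1.3e-09) with no overlap. Lox, which cross-links both collagen and elastin, was at least 2.21-fold higher (adjusted p = 1.91e-09). Eln changed by 0.85 ± 0.17 (adjusted p = 0.000174) with overlapping groups. Fbln5 changed by 0.93 ± 0.19 (adjusted p = 0.000291), with 2 of 10 control arrays at or above the median and overlapping groups. Fbln2 changed by -0.57 ± 0.17 (adjusted p = 0.00546), with 1 of 5 irradiated arrays at or above the median and overlapping groups, and by -0.20 with values floored at the array median. Loxl1 changed by 1.30 ± 0.54 (adjusted p = 0.036), also with overlap, and by 0.35 with floored values, since 3 of 5 irradiated and 2 of 10 control arrays reached the median. Its call was lost without control replicate 4, 6, 9 or 10 or without irradiated replicate 1, 2 or 4.

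**Figure D3:**
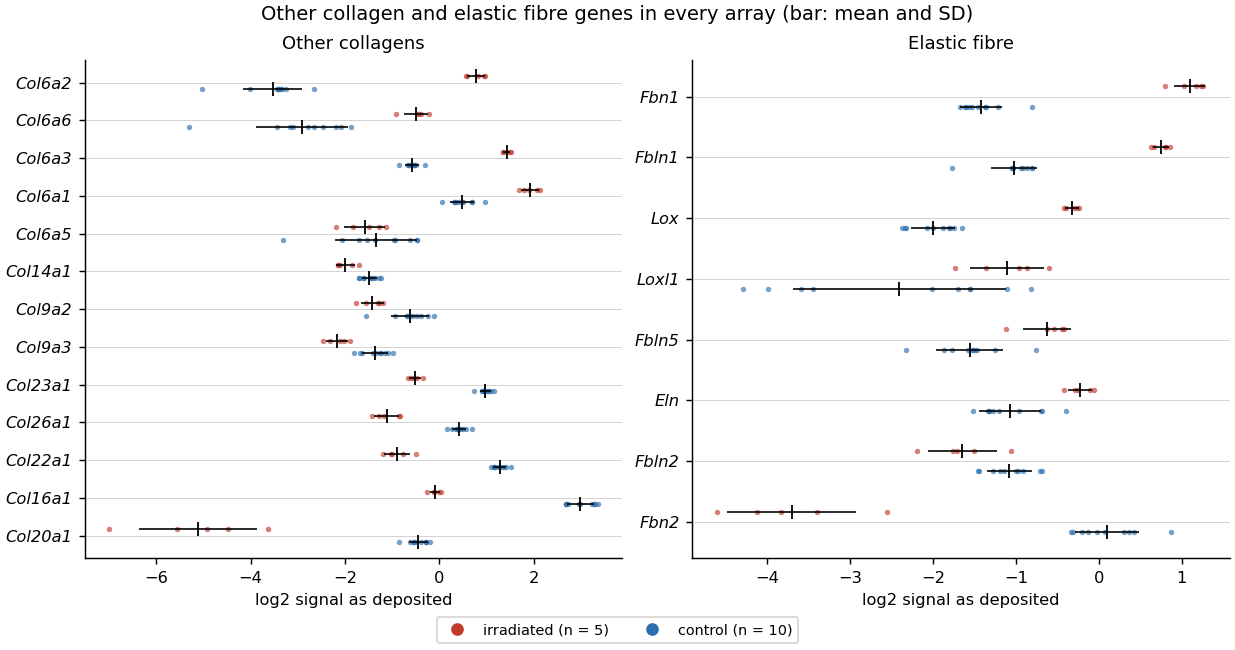
Log2 signal as deposited (horizontal axis) of the tested other collagens and elastic fibre genes in every array, irradiated (n = 5) above control (n = 10), with mean and SD as bars. Col6a2, Col6a3 and Fbn1 lie higher in every irradiated array and Col16a1, Col22a1 and Fbn2 lower, while Col6a5 and Loxl1 overlap.

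Of the proteoglycans, the small leucine-rich proteins that bind collagen fibrils gave large changes in both directions. Dcn (1370956_at), decorin, had 3.48, 3.26, 3.16, 3.08 and 3.15 in irradiated arrays, against -1.03, -0.51 and -0.01 in control arrays. The change of 3.74 ± 0.13 (adjusted p = 1.27e-13) is 13.4-fold and stayed at 1.76 on the Sertoli-centred scale. Bgn (1367594_at), biglycan, had 2.64, 2.68, 2.70, 2.51 and 2.40 in irradiated arrays, against -0.81, -0.35 and 0.18 in control arrays, a change of 2.96 ± 0.15 (adjusted p = 1.15e-11). Fmod (1367700_at), fibromodulin, had -1.21, -0.94, -1.66, -1.26 and -1.21 in irradiated arrays, against -0.03, 0.16 and 0.31 in control arrays, a change of -1.41 ± 0.10 (adjusted p = 1.57e-09) in the other direction. None of the 3 overlapped. Lum, lumican, reached the median in 4 irradiated arrays, 1 short of the filter, and was not tested. It had -1.15, -1.41, -1.20, -1.14 and -0.74 in irradiated arrays, against -6.29, -4.28 and -2.60 in control arrays, all of which were below their median. Without the filter the change of Lum was 3.32 (adjusted p = 1.24e-05), but only 0.35 with values floored at the array median.

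The glycoproteins include adhesive proteins and regulators of matrix assembly. Of 5 tested 3 were higher and 2 lower, against 47.6% and 37.9% of all genes, and nothing is read from so small a count. Vtn passed the filter only through the irradiated arrays, and Thbs2 and Thbs3 only through the control arrays. Sparc (1367562_at), a collagen-binding glycoprotein also called osteonectin, had 4.14, 4.17, 3.69, 4.12 and 3.87 in irradiated arrays, against 0.53, 0.74 and 1.10 in control arrays, a change of 3.23 ± 0.11 (adjusted p = 4.42e-14). Fn1 (1370234_at), fibronectin, had 0.56, 0.74, 0.53, 0.90 and 0.95 in irradiated arrays, against -1.79, -1.25 and -0.94 in control arrays, a change of 2.00 ± 0.13 (adjusted p = 2.3e-10). Neither gene's groups overlapped, but Fn1 came to 0.03 on the Sertoli-centred scale. Vtn (1368380_at), vitronectin, an adhesive protein of plasma, had 1.01, 0.71, 0.26, 0.96 and 0.74 in irradiated arrays, against -6.07, -5.77 and -5.40 in control arrays. All 10 control arrays were below their median, so Vtn was at least 4.61-fold higher (adjusted p = 2.64e-16). Thbs3 was lower (adjusted p = 8.78e-09), by 1.11-fold with values floored at the array median. That median was reached by 9 of 10 control arrays and no irradiated array. Thbs2 was called lower (adjusted p = 0.0144) with overlapping groups, every irradiated array and 4 of 10 control arrays under the median, and thus no fold, and the call was lost without irradiated replicate 2.

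**Figure D4:**
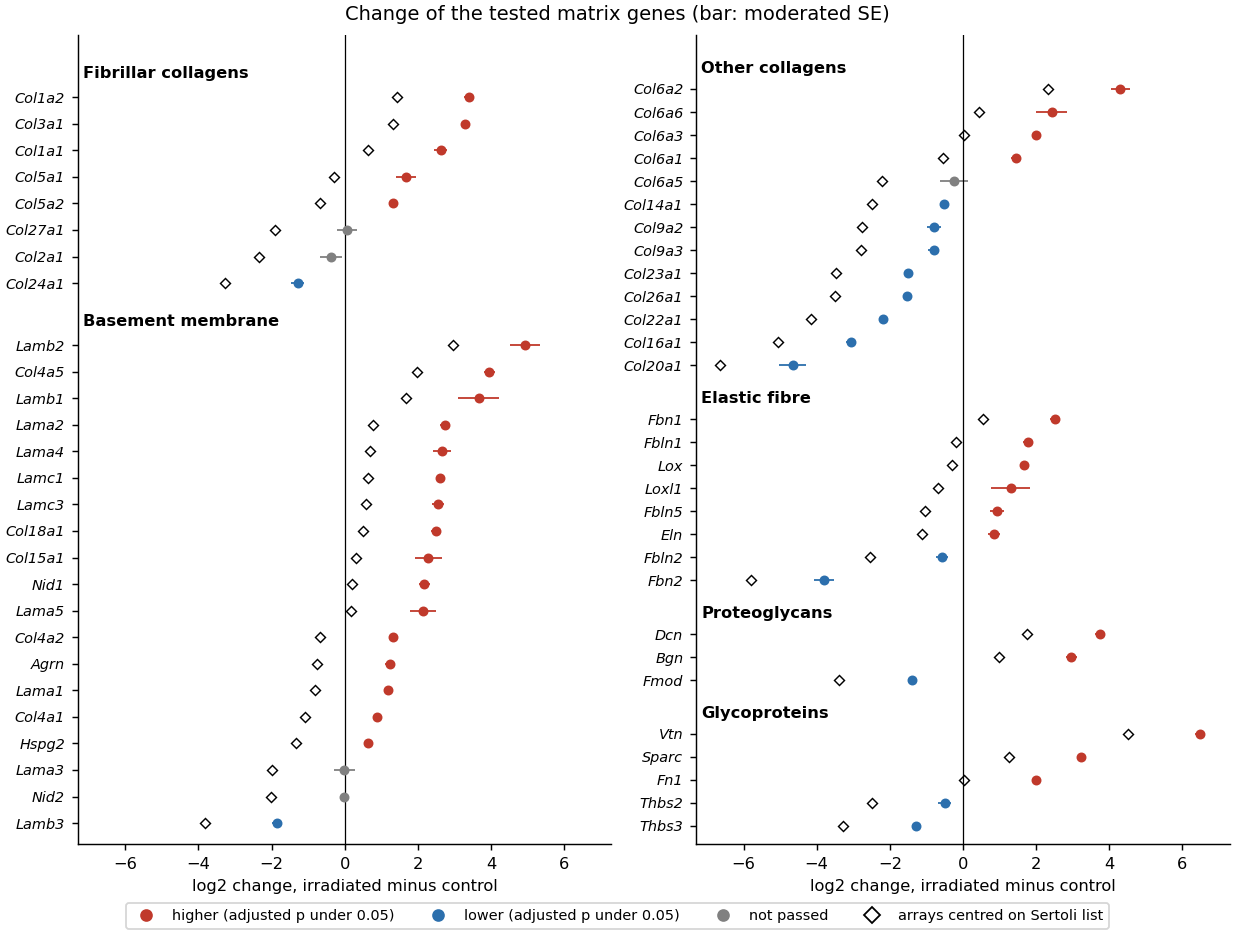
Log2 change, irradiated minus control (horizontal axis), of the 56 tested genes by class, with the moderated SE as bars and open diamonds for the change with arrays centred on the Sertoli markers. Red points passed as higher, blue as lower and grey did not pass, and the diamonds of Col4a1, Col4a2, Col5a1, Col5a2 and Hspg2 lie on the other side of 0.

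The 20 genes that did not pass the filter were Col4a4, Col4a6, Col5a3, Col7a1, Col8a1, Col8a2, Col9a1, Col10a1, Col11a1, Col11a2, Col12a1, Col13a1, Col17a1, Col19a1, Col25a1, Lum, Postn, Thbs4, Tnc and Vcan. In 17 of them every probe set lay below the array median in every array. Where a gene had 2 tested probe sets, both were higher in 12 of 14 genes and none of the 14 had probe sets called in opposite directions. The share of all genes with such agreement was not computed. The second probe sets of Col15a1, Col18a1, Col5a1 and Col5a2, and both of Lox, passed the filter only through the irradiated arrays, which favoured that direction. Sizes differed within a gene, for instance 2.49 and 5.42 for Col18a1, 1.67 and 3.16 for Col5a1, 1.63 and 2.62 for Col1a1, and 0.89 and 1.44 for Col4a1. Among the 36 higher genes, irradiated replicate 1 was the highest of its group in 17 (47.2%, against 47.2% of all higher genes) and replicate 3 the lowest in 13 (36.1%, against 25.7%).

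Promoter windows in RefSeq (GRCr8) were found for 58 of the 76 genes, as 62 windows. Motifs were searched on both strands, and each was counted by itself whether or not it overlapped another. The letters TATAAA stood in 11.3% of the members' windows, against 14.2% of all 33469 windows. The letters CCAAT stood in 30.6% of the members' windows, against 37.5% of all. The letters GGGCGG stood in 56.5% of the members' windows, against 33.1% of all. The GGGCGG share was 70% in 10 fibrillar windows, 63.2% in 19 basement membrane windows, 57.7% in 26 windows of higher members and 61.5% in 13 windows of lower members, and the members' median GC content was 59.8%, against 51.7% in all windows. The 10 fibrillar windows came from 8 genes and the 13 windows of lower members from 11, since Col24a1 has several overlapping windows. Col1a1, Col2a1 and Col3a1 had no window. The letters are a description of these windows only.

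The genes that make and receive these proteins were read from lists of known function. Of 16 tested genes for collagen processing, 15 were higher and none lower, against 47.6% higher and 37.9% lower of all genes. Their median change was 1.74, against 0.20 for all genes, and it was -0.24 (5 higher, 7 lower) after centring on the Sertoli markers. Fkbp10, a chaperone of procollagen, was at least 10.1-fold higher (adjusted p = 1.23e-07), with every control array below its median. Serpinh1, the collagen chaperone HSP47, changed by 3.18 ± 0.19 (adjusted p = 1.24e-10), and Pcolce, which speeds the trimming of procollagen ends, by 2.71 ± 0.16 (adjusted p = 8.79e-11). Bmp1, the protease that does the trimming, had a change of 0.01 ± 0.12 (adjusted p = 0.932). Of 22 tested matrix receptors 18 were higher, 2 lower and 2 did not pass, against the same shares of all genes. The receptors' median change was 1.94, and -0.042 (7 higher, 10 lower) after centring on the Sertoli markers. Of the 18, Itga8, Itga9, Itgav and Sdc2 passed the filter only through the irradiated arrays, as did Fkbp10 among the processing genes, so their direction was favoured by it. Cd36, a receptor for thrombospondin, changed by 5.16 ± 0.38 (adjusted p = 1.29e-09), with 2 of 10 control arrays at or above the median. Itga6, the alpha chain of a laminin receptor, changed by 3.62 ± 0.17 (adjusted p = 3.92e-12), and Itgav was at least 5.97-fold higher (adjusted p = 1.17e-09). Itga5, the alpha chain of the fibronectin receptor, changed by -0.33 ± 0.12 (adjusted p = 0.015) and Sdc3 by -0.32 ± 0.13 (adjusted p = 0.0282). Itga3 (0.14, adjusted p = 0.44) and Cd44 (0.01, adjusted p = 0.97) did not pass.

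**Figure D5:**
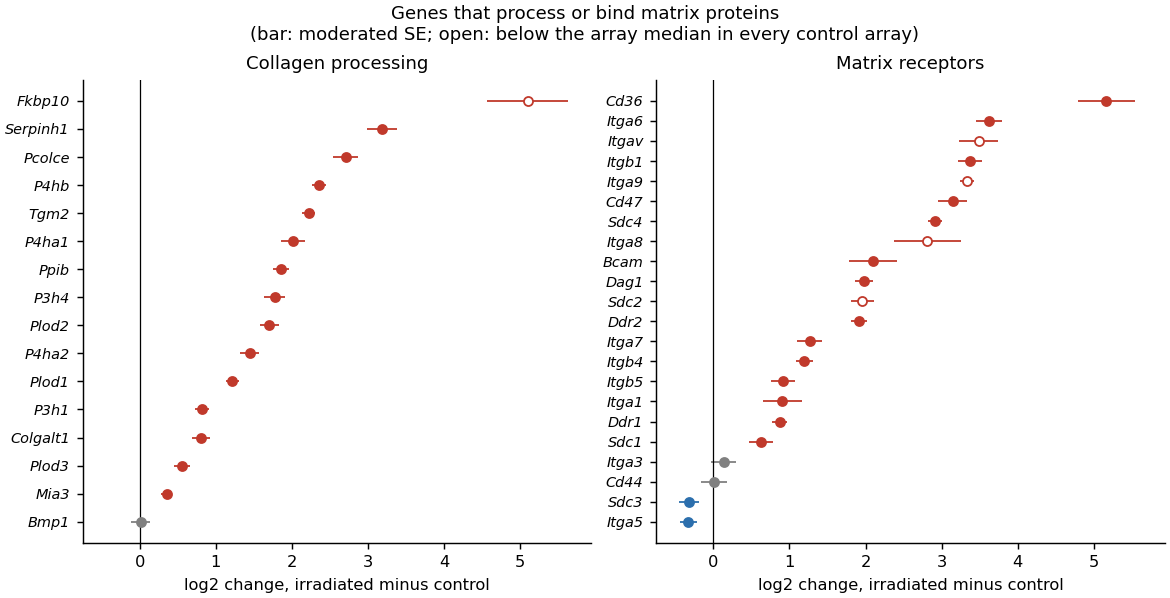
Log2 change, irradiated minus control (horizontal axis), of the tested collagen processing genes (left) and matrix receptors (right), with the moderated SE as bars and open points for genes below the array median in every control array. On the deposited scale 15 of 16 processing genes and 18 of 22 receptors passed as higher, against 47.6% of all genes. Bmp1, Itga3 and Cd44 lie near 0, and Sdc3 and Itga5 are lower. Centring on the Sertoli markers turns both medians negative.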

How the data were processed

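Whole-testis RNA was hybridised to rat 3' expression arrays, 5 irradiated and 10 control. The authors deposited log2 values per probe set, for which the submitters' processing notes name MAS5, with its version, scaling and zero point not stated, in 1 table with 0 unused value columns, and without detection calls. No array pair held identical values. Arrays stand for samples, so their number limits the precision. Group labels came from the sample records.

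Genes were named through the platform's 2016 annotation: of the probe sets that are not controls, 20826 had 1 symbol, 436 several and 9780 none. limma 3.58.1 in R 4.3.3 (lmFit, eBayes, no covariates) was run on the 18711 probe sets at or above their array's median in at least 5 of 15 arrays, with Benjamini-Hochberg adjustment, and was tested on simulated data. The representative was chosen among tested probe sets, which matters for Lama5 alone. Named with values are all tested fibrillar and basement membrane genes, the 4 largest changes of the other classes, every gene that fell or did not pass, and the 3 largest changes in each direction of the pathway lists. Other members are named to complete the account. The members and lists were chosen with earlier results of these data known. The records name no pairing by replicate number, and none was used in the main fit. Same-numbered samples correlated at -0.09 to 0.10, and 2 of 5 matched their own number best. With so few arrays this cannot exclude a pairing.

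Array medians were -1.38 to -1.26 in irradiated and -1.61 to -1.37 in control arrays. The ratio of actin 3' to 5' probe sets (log2) was 0.90 to 1.16 in irradiated and 0.65 to 1.89 in control arrays, highest in control replicates 6, 7 and 8. Alternatives covered normalization, centring, filters, pseudocounts, the choice of probe set, the test, and leaving out arrays. Promoter sequences are RefSeq's.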

Additional observations from a re-analysis of the deposited data

Results flagged for a closer look

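In 10 of 112 groups of arrays (56 genes, irradiated and control), 1 sample lay far from the others, where chance flags about 1 in 20 groups. Among irradiated arrays, Agrn was -0.24 in replicate 4, with the nearest other at -0.09. Col18a1 was 2.09 in irradiated replicate 3, with the nearest at 2.41, and Lama4 was 0.23 there, with the nearest at 0.53. Col4a1 was 1.54 in irradiated replicate 1, with the nearest at 1.22. Among control arrays, Col2a1 was -3.00 and Col6a6 was -5.31 in replicate 1, with the nearest at -1.76 and -3.45. Col4a5 was -1.49 in control replicate 2, with the nearest at -0.93. Lamc3 was 0.24 in control replicate 4, with the nearest at -0.57. Control replicate 6 held the lowest control value of Fbln1, -1.77 with the nearest at -1.05, and the highest of Fbn1, -0.81 with the nearest at -1.21. The flagged control values of Col2a1, Col6a6, Col4a5 and Fbln1 lie below the medians of their arrays (-1.61 in replicate 1, -1.45 in replicate 2 and -1.49 in replicate 6), where values have no order.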

How the results depend on the processing

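Of the 56 tested genes 51 passed as analysed, and leaving out 1 array at a time gave 49 to 52 (35 to 36 higher, 14 to 16 lower), with 5 fibrillar and 16 basement membrane genes higher each time, a fibrillar median of 1.45 to 1.54, a basement membrane median of 2.15 to 2.26 and a difference of -0.81 to -0.63. The fibrillar and basement membrane medians were 1.20 and 1.99 with quantile normalization, 1.34 and 2.02 with arrays centred on their median, 1.25 and 1.98 with a pseudocount of 0.1, 1.25 and 1.86 with values floored at the array median, and 1.63 and 2.28 without control replicates 6, 7 and 8. With a pseudocount of 1 they were 0.53 and 0.97, with a difference of -0.44. Without a filter they were 0.061 and 1.86, with a difference of -1.80. At the 75th percentile, with 21 genes untested, they were 3.30 and 2.39, the difference was 0.91, 3 fibrillar genes were higher and 7 member genes lower. The mean of a gene's probe sets gave 1.87, 1.92 and -0.058, and the probe set with the smallest change gave 1.67 for basement membrane and -0.20 for the difference. Controls 1 to 5 alone gave a fibrillar median of 1.73 and a difference of -0.52, and controls 6 to 10 alone 1.25 and -0.85. A fit with the replicate number as a block gave a fibrillar median of 1.73 and a difference of -0.52, with 49 genes called, losing Fbln2 (adjusted p = 0.0504) and Loxl1 (adjusted p = 0.114). Lower genes numbered 9 both with floored values and with the test against 1 log2 unit. Arrays centred on the Sertoli markers gave 17 higher and 29 lower, 3 fibrillar and 8 basement membrane genes higher, and medians of -0.49 and 0.20. Centred on the myoid markers, these were 17, 30, 3, 8, -0.52 and 0.17. The cause of these moves was not tested.

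Single genes that changed direction were, centred on the Sertoli markers, Agrn at -0.75, Col27a1 at -1.92, Col4a1 at -1.09, Col4a2 at -0.67, Col5a1 at -0.31, Col5a2 at -0.67, Col6a1 at -0.53, Eln at -1.13, Fbln1 at -0.20, Fbln5 at -1.05, Hspg2 at -1.34, Lama1 at -0.80, Lox at -0.30 and Loxl1 at -0.68. Centred on the myoid markers they were Agrn at -0.78, Col27a1 at -1.95, Col4a1 at -1.12, Col4a2 at -0.70, Col5a1 at -0.34, Col5a2 at -0.70, Col6a1 at -0.57, Col6a3 at -0.0088, Eln at -1.16, Fbln1 at -0.23, Fbln5 at -1.08, Fn1 at -0.0074, Hspg2 at -1.37, Lama1 at -0.84, Lox at -0.33 and Loxl1 at -0.71. Lama5 was -0.51 without a filter, where another probe set stands for it, and with floored values Col14a1 was 0.11 and Thbs2 was 0.066. Without detection calls, values below the array median have no order.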
